A study of Glycine max with 8 samples.

Results

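The early risers are transcripts of soybean seed (Glycine max, cultivar Suzumaru) whose signal had already gone up when imbibition had lasted 8 h. A probe was taken as an early riser when 3 conditions held. The scanner software marked it well above background in each of the 6 imbibed samples, its lowest 8 h value lay at least 1 log2 above its highest dry value, and its mean at 8 h lay at least 1.5 log2 above its mean in dry seed. Of 42748 soybean probes, 240 met the rule. They make up 0.561% of the soybean probes and 1.25% of the 19225 probes well above background on all 8 h and 16 h arrays. Values are log2 of the processed signal minus the 75th percentile of that array, so that 0 is the array's own 75th percentile. Members were thus selected on their dry and 8 h values, and their rise by 8 h is given as a description, with nothing read from a test of it. The 16 h values entered the rule only through detection at 16 h, and that condition removed 0 probes that met the others.

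The study set dry seed (2 arrays) beside seed imbibed for 8 h (3 arrays) and for 16 h (3 arrays), all of whole seed and of 1 cultivar. The labels' protocols describe lots of about 30 seeds, treated with 1% hypochlorous acid, rinsed, and kept dark on wet cotton at 25 °C. The 8 h sample was of seeds that had gained more than 0.06 g of water, and the 16 h sample of seeds that had germinated or gained more than 0.33 g, so time and selection for water uptake go together. The 20 to 25 seeds of a stage were split into 3 portions before RNA extraction, and p-values therefore measure the spread between portions of 1 lot of seeds, which may be technical. Whole seed mixes cotyledon, embryonic axis and seed coat. A higher signal from more cells of a type and from more RNA per cell cannot be told apart in such samples.

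Dry seeds hold stored messenger RNA from maturation on the mother plant. When water enters, respiration and protein synthesis resume first on stored components. New transcription follows within hours, and the growth of the embryonic axis that ends germination comes later. Transcripts that rise before the axis emerges are therefore read in seed biology as part of the early programme of imbibition, and their later course tells a brief response from a lasting one.

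The array names its probes by sequence accession and clone. Of the 42748 soybean probes, 0 had a match among 59048 genes in the RefSeq table (assembly Glycine_max_v4.0), so no gene, product or genome position is given for any member. For the same reason the tissue labels could not be checked against marker genes. Each member has an accession of its own, but several accessions can come from 1 gene, so that 240 probes may stand for fewer genes. The results are given for classes of members, for 4 probes by name, and for others by what singles them out. Probe sequences were not used here.

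On every array at 8 h the early risers stood above dry seed, and on every array at 16 h higher again. The median of the 240 members was -3.24 and -3.09 log2 on the dry arrays. It was -0.42, 0.06 and -0.81 on the arrays of 8 h replicates 1, 2 and 3. At 16 h it was 1.68, 1.44 and 1.67. The dry and 8 h medians do not overlap because the rule chose members that way. The 16 h medians lie above all 3 at 8 h.

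**Figure D1:**
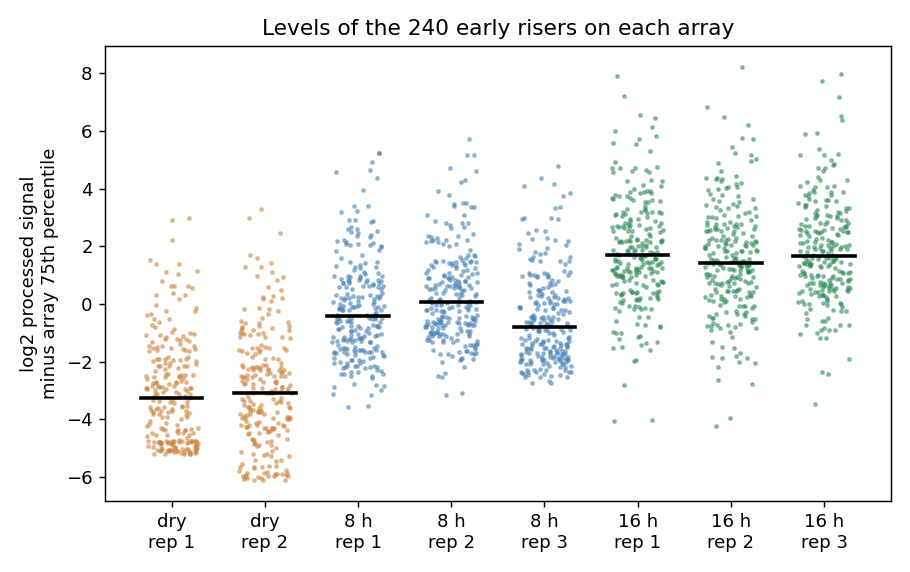
Signal of the 240 early risers on each of the 8 arrays, as log2 processed signal minus the 75th percentile of the array (vertical axis); each point is 1 probe and each black line the median of the 240. The medians are near -3 in dry seed, between -0.81 and 0.06 at 8 h, and between 1.44 and 1.68 at 16 h.

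Ranked among all soybean probes of an array, the members moved from the middle towards the top. The median member stood at the 47.3rd and 49.4th percentile in dry seed, at the 71.5th, 75.6th and 68.6th at 8 h, and at the 89.2nd, 87.7th and 89.0th at 16 h. Only 2 and 3 members were in the top 10% of probes on the dry arrays. Between 17 and 37 were there at 8 h and between 104 and 116 at 16 h. Most members of the brightest class at 16 h were thus outside it in dry seed. The climb from dry seed to 8 h was selected by the rule, which the 16 h values entered only through detection.

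Many members were too dim in dry seed for their rise by 8 h to be measured as a fold. Of the 240, 87 were well above background on both dry arrays, 53 on 1 of them and 100 on neither. Over the 87 the rise by 8 h had a median of 2.07 log2 (4.20-fold) and reached at most 5.21. For each of the 100 only a bound can be given, the mean at 8 h against the mean over dry arrays of the higher of the probe's own value and the lowest signal well above background. This floor lay at -2.91 and -3.78 log2 on the dry arrays. All 100 had a bound above 1-fold, with a median of at least 3.97-fold. It was at least 4-fold for 49 of them, at least 8-fold for 20, and at least 50.3-fold for the member with the largest.

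The member with the largest rise by 8 h among the 87 measured in dry seed lay at -0.24 and -0.75 log2 on the dry arrays. It lay at 4.57, 5.72 and 3.85 at 8 h, and at 7.91, 8.23 and 7.96 at 16 h. No 2 stages overlap, though the rule required this of dry seed and 8 h. Its 16 h mean of 8.04 ± 0.17 (SD, n = 3) is the highest of any member. The member with the highest level at 8 h lay at 1.15 and 0.97 in dry seed, at 5.22, 5.17 and 4.35 at 8 h, and at 7.20, 6.83 and 7.72 at 16 h. It too went up at each step without overlap, which the rule required of the step from dry seed to 8 h. Signals of different probes are not levels of transcript that can be set against each other, so these ranks are of probes.

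The gap of at least 1 log2 between the lowest 8 h and the highest dry value cut through a continuous range. The 3 members just inside it had gaps of 1.00, 1.03 and 1.05 log2, with mean rises of 1.73, 2.35 and 1.69. The 3 probes just outside it, with enough of a mean rise, had gaps of 0.997, 0.995 and 0.994, with mean rises of 1.64, 1.75 and 1.52. A limma fit over all 28792 tested probes called 165 of the 240 members higher at 8 h than in dry seed at an adjusted p under 0.05, where 0.715% of tested probes, and 0.931% of the 19225, were called higher. The rule used this contrast, and nothing is read from that count.

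The 8 h arrays differed from each other over the members more than over other detected probes. The SD between the 3 arrays at 8 h had a median of 0.46 log2 over members and 0.21 over the 19225 probes detected at 8 h and 16 h. At 16 h it was 0.32 and 0.17. Replicate 2 was the highest of the 3 arrays at 8 h for 187 of 240 members (77.9%), against 22.3% of the 19225 probes. Replicate 3 was the lowest for 162 members (67.5%), against 25.9%. Replicate 3 also had the fewest soybean probes well above background, 19559 against 25355 and 26835 in replicates 1 and 2, and the highest floor, at -2.81 log2 against -3.97 and -4.32. Its part in the members' values was not tested. The rule asks for detection on every 8 h array and for the gap at the lowest 8 h value. Without replicate 3, 777 probes met the rule, the 240 among them. Leaving that array out lifts both conditions for it, and their parts were not told apart. Without any other single array the number lay between 230 and 341.

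From 8 h to 16 h the early risers mostly went on rising. A limma fit with a mean per stage, adjusted by Benjamini-Hochberg over all 28792 tested probes, gave calls at an adjusted p under 0.05. It called 208 of the 240 higher at 16 h than at 8 h (86.7%), 4 lower and 28 neither way. In all, 29.2% of tested probes were called higher and 31.0% lower. Among the 19225 probes with the detection the rule asks for, 20.2% were called higher and 42.8% lower. The share of members called higher is thus above both backgrounds, and the share called lower (1.67%) below both. The median change after 8 h was 1.85 log2 (3.60-fold) over the members, 0.0043 over all tested probes and -0.32 over the 19225. The 8 h arrays stand in this contrast and in the rule alike.

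The ordering of the arrays gave a like count. Every 16 h array lay above every 8 h array for 208 members, against 34.1% of tested probes and 24.5% of the 19225. Of these 208, 201 were among the 208 called higher. Every 16 h array lay below every 8 h array for 4 members, all 4 of them called lower, against 35.8% of tested probes and 49.1% of the 19225. The remaining 28 members overlapped between the stages.

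**Figure D2:**
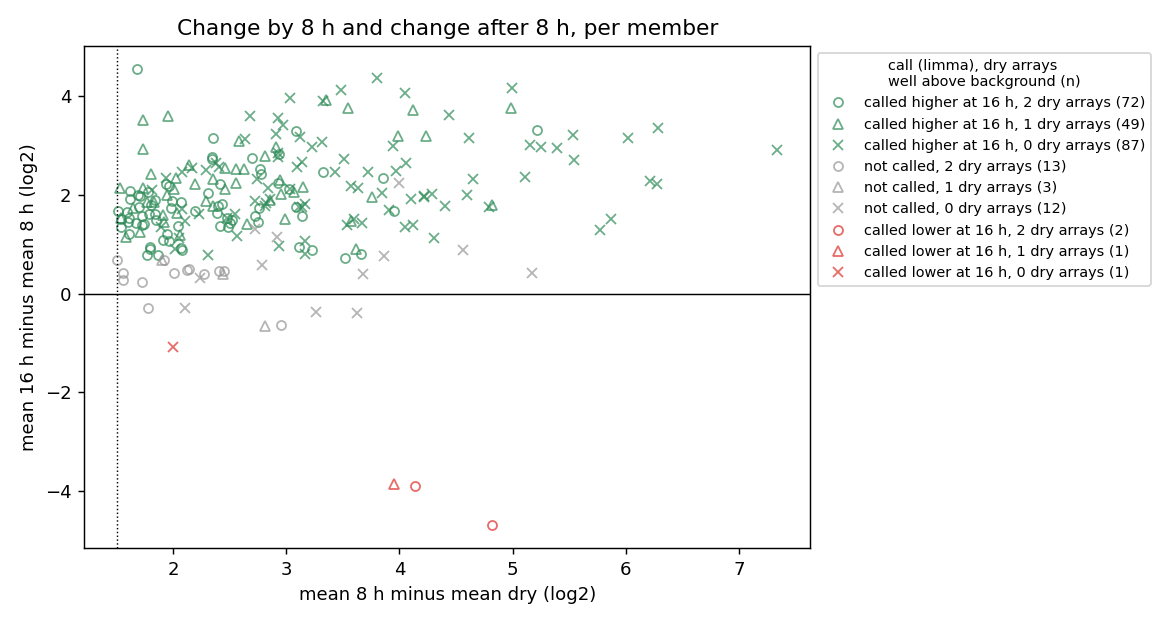
Each point is 1 of the 240 early risers, with its change from dry seed to 8 h (horizontal, log2) and its change from 8 h to 16 h (vertical, log2); colours give the limma call for 16 h against 8 h and symbols the number of dry arrays on which the probe was well above background. Both axes hold the 8 h mean, the horizontal place of a probe dim in dry seed rests on dry values below background, and the dotted line is the rule's least mean rise of 1.5; 208 points are called higher, 28 are not called and 4 are called lower, of which 3 lie below -3.

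By size, 32 members rose by at least 3 log2 after 8 h, 70 by 2 to 3, 94 by 1 to 2 and 21 by 0.5 to 1. Another 17 changed by less than 0.5 either way, 2 were lower by 0.5 to 1, and 4 were lower by more than 1. Among the 87 members measured on both dry arrays, the change after 8 h was larger than the change up to 8 h for 17. Over these 87, a median of 58.8% of the way from dry seed to 16 h was covered by 8 h on this scale. The quartiles were 51.8% and 69.1%, and the rule held the rise by 8 h to at least 1.5 log2. For 4 of the 87 the 8 h mean was at or past the 16 h mean. No member had a 16 h mean below its dry mean (0 of 240).

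The probe with the largest called rise after 8 h was CX709355.1_638, whose larger step came after 8 h. It lay at -2.61 and -2.71 log2 in dry seed, at -1.08, -0.73 and -1.14 at 8 h, and at 3.88, 3.79 and 3.04 at 16 h. Its values were close together in dry seed and at 8 h, and did not overlap between 8 h and 16 h. At 16 h its SD was 0.46 log2, against a median of 0.32 over members. The rise after 8 h was 23.5-fold, 4.55 ± 0.25 on the log2 scale (SE), and its adjusted p from limma was 0.000329. The next was GMFL01-34-G12-R_340 (accession BW672235.1), at -4.73 and -5.98 in dry seed, -2.28, -0.70 and -1.68 at 8 h, and 2.94, 2.99 and 2.54 at 16 h. It was well above background on neither dry array, spread widely at 8 h, and was tight at 16 h. Its rise after 8 h was 20.7-fold, 4.37 ± 0.45 on the log2 scale (SE; limma adjusted p = 0.000458). The 2 members described above for their rise by 8 h and their level at 8 h rose further by 3.32 ± 0.43 and 2.33 ± 0.30 log2 (SE; limma adjusted p = 0.000857 for each).

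A smaller set showed no called change after 8 h. The 28 members not called had a median change of 0.42 log2, from -0.65 to 2.23. Of these, 17 lay within 0.5 log2 of no change, from -0.38 to 0.50, and 10 of the 17 were well above background on both dry arrays. The rise of those 10 by 8 h ranged from 1.55 to 2.45 log2. For the 6 that were dim on both dry arrays it was at least 1.98-fold to at least 7.99-fold. The 95% intervals of their change after 8 h had a median half-width of 0.68 log2 and reached from -1.66 to 1.65 at the extremes. Only 6 of the 28 had an interval within 1 log2 of no change on both sides, so a level course is bounded to that size for 6 members, and a further rise or fall beyond 1 log2 is not excluded by the interval for the others. The smallest change belonged to a member at -2.45 and -2.38 log2 in dry seed, -0.50, -0.67 and -0.89 at 8 h, and -0.70, -0.75 and 0.12 at 16 h. Its stages of 8 h and 16 h overlap, and its change was 0.24 ± 0.25 log2 (SE), with a 95% interval from -0.34 to 0.82 and a limma adjusted p of 0.422. Among the 28 not called, 7 had every 16 h array above every 8 h array. The one with the largest change of the 28 lay at -0.07, 1.24 and -2.72 at 8 h and at 1.25, 2.22 and 1.67 at 16 h, a spread at 8 h that left 2.23 ± 0.92 log2 (SE; limma adjusted p = 0.0672).

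**Figure D3:**
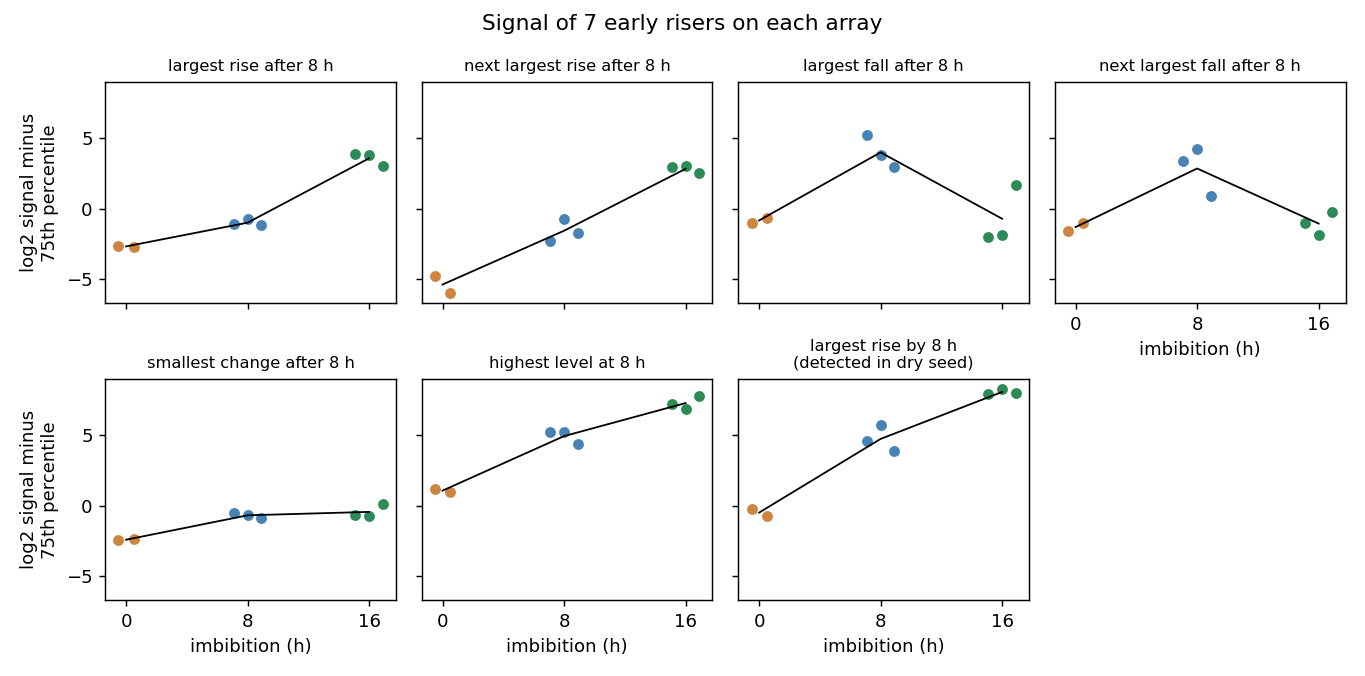
Signal of 7 early risers on each array (points, log2 processed signal minus the array's 75th percentile) against hours of imbibition, with points of a stage set side by side for legibility and a line through the stage means. The first 2 panels show the largest rises after 8 h (4.55 and 4.37 log2), the next 2 the largest falls (-4.69 and -3.89), the fifth the smallest change (0.24), and the last 2 the highest 8 h level and the largest rise by 8 h among members detected in dry seed.

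A fall after the early rise was called in 4 members, and in 3 of them the 16 h mean was back within 0.5 log2 of the dry mean. CK605818.1_90 lay at -0.98 and -0.67 log2 in dry seed, at 5.23, 3.80 and 2.95 at 8 h, and at -1.99, -1.83 and 1.71 at 16 h. All 3 values at 8 h lie above all others, but 16 h replicate 3 stands well above the other arrays at 16 h. The 16 h mean was 25.9-fold lower than the 8 h mean, a change of -4.69 ± 1.01 log2 (SE; limma adjusted p = 0.00576). CK605785.1_119 lay at -1.56 and -1.02 in dry seed, at 3.38, 4.23 and 0.93 at 8 h, and at -1.01, -1.88 and -0.25 at 16 h. Its 8 h values spread over more than 3 log2 and do not overlap with those at 16 h. For both probes the gap between dry seed and 8 h was required by the rule. CK605785.1_119 was lower by -3.89 ± 0.81 log2 (SE) after 8 h, a 14.9-fold fall (limma adjusted p = 0.00505). The 16 h means of these probes were -0.70 and -1.05, beside dry means of -0.83 and -1.29. For CK605818.1_90 no 16 h array by itself lay within 0.5 log2 of the dry mean, so only the average did.

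The third of the falling members was dimmer, at -3.82 and -3.48 log2 in dry seed, 2.09, -0.67 and -0.53 at 8 h, and -4.05, -4.22 and -2.43 at 16 h. Its change after 8 h was -3.86 ± 0.79 log2 (SE; limma adjusted p = 0.00455). In each of these 3 members the highest array at 16 h was replicate 3. The 3 carry accessions of 1 run, CK605 to CK606, which holds 190 of the 42748 soybean probes and 44 of the 19225 detected at both imbibed times. They are the only early risers of that run, and the only ones to fall by more than 3 log2. The fourth falling member was near background, at -5.06 and -4.39 in dry seed, -3.11, -3.15 and -1.92 at 8 h, and -4.00, -3.94 and -3.46 at 16 h. Its change was -1.07 ± 0.37 log2 (SE; limma adjusted p = 0.0364). Scaled to the spike-ins, its sign turned, to 0.35 log2, while the other 3 stayed lower by -3.27, -2.47 and -2.44.

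Members rose after 8 h in each class of detection in dry seed. Of the 100 dim on both dry arrays, 87 were called higher after 8 h and 1 lower, with a median change of 2.10 log2. Among the 53 detected on 1 dry array, 49 were called higher and 1 lower, with a median of 2.12. The 87 detected on both gave 72 higher and 2 lower, with a median of 1.54. The dry arrays do not enter this contrast except through the shared spread. These classes were not tested against each other.

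Probes that met the detection but not the size of the early rise are given for comparison. Among the 19225 probes with the same detection, 2142 had a lowest 8 h value above the highest dry value by less than 1 log2, and 59.8% of them were called higher after 8 h, with a median change of 0.66 log2. The 186 probes with a gap of 0.5 to 1 log2 and a mean rise of at least 1 came close to the members. Of these, 83.9% were called higher and 1.08% lower, with a median change of 1.42 log2. A gap of at least 1 log2 was met by 259 probes, the members among them, and those short of the mean rise form no class here. Another 16824 overlapped with dry seed or lay below it at 8 h. Of these 14.2% were called higher and 48.3% lower, with a median of -0.44. These classes were made from the 8 h arrays, which the contrast shares, and the shares are a description.

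The scale on which arrays are compared moved the size of the later rise and the calls of the members near level. Relative to the viral E1A spike-ins, RNAs added in fixed amounts to each labelling, the 75th percentile of soybean probes was 1.42 log2 higher at 16 h than at 8 h and 0.025 higher at 8 h than in dry seed. On that scale the members' median change after 8 h was 3.27 log2, against 1.43 over all tested probes. Over the 87 members measured on both dry arrays, the median rise was 2.09 log2 by 8 h and 2.96 after it. By median the later step was thus the larger on this scale, where relative to the 75th percentile it was the smaller, at 1.54 against 2.07. Limma then called 235 members higher, all 208 of the earlier calls among them, and 3 lower, which left 2 called neither way in place of 28. On this scale 76.9% of tested probes were called higher. Members near level relative to the 75th percentile were higher at 16 h when scaled to the spike-ins. The one with the smallest change stood at 1.67 ± 0.27 log2 (SE; limma adjusted p = 0.000546) there. A fall relative to the spike-ins was left in 3 of the 240 members.

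**Figure D4:**
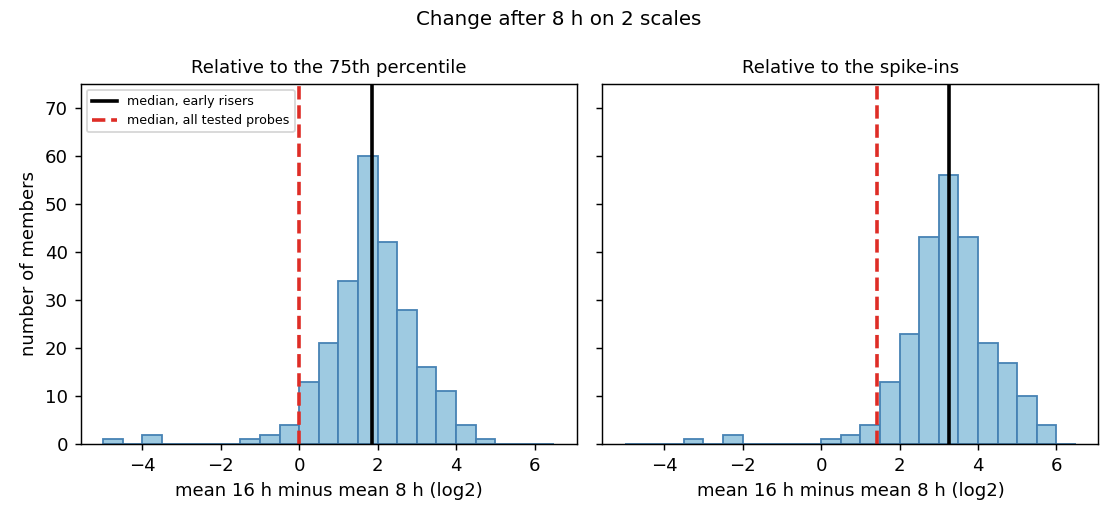
Number of early risers by their change from 8 h to 16 h in bins of 0.5 log2, relative to each array's 75th percentile (left) and to the spike-in RNAs (right). Solid lines mark the median of the 240 members (1.85 and 3.27) and dashed lines the median of all tested probes (0.0043 and 1.43).

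Each slide held 4 arrays with all 3 stages, and the members' medians were close on both. Over the 87 members measured on both dry arrays, the median rise by 8 h was 2.17 log2 on slide 1 and 2.02 on slide 2. Over all 240, the median change after 8 h was 1.88 and 1.86. After 8 h, 226 of the 240 members were higher on both slides and 6 were lower on both. All 208 members called higher rose on both. Within slide 1 alone, limma called 194 members higher and 8 lower. Within slide 2 alone it called 0 and 0, and 181 higher and 2 lower at an unadjusted p under 0.05. Each of these fits has 1 residual degree of freedom. Slide 1 has 1 array at 8 h, assumed to vary like the pair at 16 h, and slide 2 has 1 array at 16 h, assumed to vary like the pair at 8 h. Neither fit is a replicated test of both stages. On slide 2, 0% of all tested probes were called. With slide as a block the counts were 205 and 3. For CK605818.1_90 the slides differed in size, with a change of -7.14 log2 on slide 1 and -1.66 on slide 2.

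The members were not spread evenly over the clone collections on the array. Clones of the GMFL01 collection made up 101 of the 240 members (42.1%), against 30.8% of the 19225 detected probes and 21.9% of all soybean probes. Those whose clone name ends in R gave 97 members, or 1.87 per 100 detected probes. Those ending in F gave 4, or 0.540 per 100. All other accessions gave 139, or 1.04 per 100. What R and F stand for is not stated in the files. Among the 101 GMFL01 members 90 were called higher after 8 h, and among the 139 others 118. These shares were not tested, since probes of 1 collection can share genes.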

How the data were processed

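Scanner files of 8 1-colour Agilent arrays were used. Signals came from Agilent's Feature Extraction software, version 10.7.3.1, per the file headers. The deposited processed signal is an intensity that this software had background-subtracted and detrended array by array, without scaling arrays to each other. Median spot and local background intensity, per the file headers, served only in an alternative with normexp. The deposited value table holds log2 values. Each of its columns equals the scaling used here up to a constant between -0.0027 and -0.00084, with medians from -3.10 to -2.52, so its scale, centring and direction are known.

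Values were log2 processed signal minus the 75th percentile of each array. The 1417 other spots and 0 to 4 outlier spots per array were left out, and no spot was saturated (0). The 75th percentile lay between 209 and 749 intensity units, and 19559 to 31193 probes were well above background per array. The number of arrays limits the precision. A probe was tested when all arrays of some stage had it well above background. Limma fitted a single model of stage means to all 8 arrays (version 3.58.1, R 4.3.3; 5 residual degrees of freedom, 2-sided, Benjamini-Hochberg). The procedure was also run on simulated data with known changes. Tables were made in Python 3.11.15. The spike-in mean used the 7 of 10 E1A probes that were neither dim nor saturated on any array. Slide came from the first part of the array barcode, per the file headers.

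The members and lists were chosen with earlier results of these data known. Named probes were, by rule, the 2 largest called rises and the 2 largest called falls after 8 h. The members with the smallest change, the highest 8 h level and the largest rise among those detected in dry seed were taken by the same rule. Lists of 42 product names were not run, because no probe matched a gene. The normexp alternative used median spot signals, where mean signals had been planned, because the files as used hold no mean spot signal.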

Additional observations from a re-analysis of the deposited data

How the results depend on the processing

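Over 22 alternatives the count of early risers called higher after 8 h stayed within 1.5 times of 208 in 20. It fell to 76 when only probes detected on all 8 arrays were tested, which leaves 87 members, and to 0 within slide 2, where the cause was not tested. The count called lower went from 4 to 7 with median centring, to 8 within slide 1 and to 0 within slide 2. The median change moved by more than the SD between arrays at 8 h only with spike-in centring, to 3.27 log2. With single arrays left out, the counts ranged from 187 to 207 and from 3 to 6, the median from 1.71 to 2.04, and the size of the group from 230 to 777, the last without 8 h replicate 3. Normexp background left 58 probes in the group, 57 of them shared. Its offset of 50 shrinks differences of dim probes. The 6 called probes taken by the rule for naming kept their direction in each alternative that gave a value (21 for GMFL01-34-G12-R_340, 22 for the others) and lost their call only within slide 2, where their limma adjusted p ranged from 0.163 to 0.280. Deviations of same-numbered arrays from their stage means, over probes detected on all 8 arrays, correlated between -0.050 and 0.19. The pairs at 0.149, 0.149, 0.174 and 0.187 each share a slide, as does the pair at -0.050, and pairs on different slides were at 0.061 and -0.0009. Number and slide cannot be told apart in the former, and whether same-numbered arrays are paired was not settled. The fourth falling member turned to 0.35 log2 with spike-in centring. With the replicate block, 199 members were called higher and 4 lower. Signal over background limits the rise by 8 h to a bound for 100 members, and 53 more were well above background on only 1 dry array.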

Other observations

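The course of rise and return was rare on the whole array. Among soybean probes detected in each of the 3 samples at 8 h, 10 rose by at least 1 log2 by 8 h and were lower by at least 1 log2 after it, and 4 of the 10 were early risers. These values were taken relative to the 75th percentile and as measured, whether or not dry seed was above background. Relative to the spike-ins, that percentile was 1.42 log2 higher at 16 h than at 8 h. No count of this course is given on the spike-in scale. The change after 8 h of the 6 others was between -2.12 and -1.15 log2, and limma called 3 of them lower.

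With detection on at least 1 array at 8 h, 206 soybean probes showed this course, or 0.482% of the array. The accession run CK605 to CK606 was singled out here from the 3 falling members that carry it. It gave 10 of the 206, those 3 among them, or 5.26% of its 190 probes. As the run was picked from these same data, its share is a description and was not tested. Apart from the 3 early risers, the 7 others lay below the lowest signal well above background on both dry arrays, so no size is given for their rise by 8 h. Of these 7, 5 were well above background on 1 array at 8 h and 2 on 2 arrays, with a highest value of -0.56 log2. At 16 h, 5 of the 10 were well above background on no array, so their later level there has only an upper bound.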
